A study of Rattus norvegicus with 6 samples.

Results

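The cytochrome P450 genes of the rat were followed in the kidneys of diabetic rats with and without Qishen Yiqi dripping pill (QYDP), a preparation of Radix Astragali, redroot sage, pseudoginseng and fragrant rosewood. The genes were chosen by name. A member had a symbol made of Cyp, a family number, letters and a number, or was Cyp51, or was Por, the reductase that passes electrons to most of these enzymes. That gave 72 genes of the 18166 that the array reads under 1 symbol. P450 genes with other symbols, such as Tbxas1 (thromboxane synthase) and Ptgis (prostacyclin synthase), were not members and were read in a list below. The HQYDP group comprised 3 male Sprague-Dawley rats made diabetic with streptozotocin at 60 mg/kg and then given QYDP at 300 mg/kg/day for 8 weeks. The DM group comprised 3 rats made diabetic in the same way and not given QYDP. All 6 rats were 17 weeks old according to the labels, which give kidney as the tissue, while the methods give kidney cortex. Streptozotocin kills the insulin-producing β cells, so both groups model insulin deficiency, and non-diabetic rats were not analysed here. Each replicate in the labels was taken as 1 rat, which the labels do not state. RNA of each was read on 1 Affymetrix Rat Gene 2.0 ST array, and every value below is a log2 array value.

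Cytochrome P450 enzymes are heme proteins that insert an oxygen atom into their substrate. Families with low numbers mostly clear drugs and other foreign compounds in the liver. Others have one task of their own, such as closing down vitamin D or retinoic acid, making steroid hormones or bile acids, or turning arachidonic acid into lipid signals. The kidney is known for the last of these and for vitamin D, since the proximal tubule both activates and inactivates the vitamin and makes epoxides and hydroxy acids that act on vessels and sodium transport. In the rat, several liver enzymes of the Cyp2c subfamily are made by 1 sex only, under the control of growth hormone.

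The member with the widest gap between the groups, Cyp2c11, is such a gene, and its promoter is shown beside those of 3 relatives because they share one feature near the start of transcription. The sequences are from RefSeq (build GRCr8) and cover the 250 bases before the start, 5′ to 3′ on the strand of the gene. Capitals mark each TATAAA or its reverse complement, the short element at which the transcription machinery can assemble.
Cyp2c11: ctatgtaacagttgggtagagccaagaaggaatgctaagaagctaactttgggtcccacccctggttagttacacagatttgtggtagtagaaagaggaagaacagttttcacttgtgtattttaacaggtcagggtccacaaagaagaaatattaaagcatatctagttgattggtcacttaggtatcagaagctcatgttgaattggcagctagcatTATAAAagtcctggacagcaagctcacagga
Cyp2c55: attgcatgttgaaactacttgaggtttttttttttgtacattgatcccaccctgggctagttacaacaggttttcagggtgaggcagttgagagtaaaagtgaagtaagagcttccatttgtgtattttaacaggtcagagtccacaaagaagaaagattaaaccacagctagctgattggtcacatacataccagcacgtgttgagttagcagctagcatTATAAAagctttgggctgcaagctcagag
Cyp2c13: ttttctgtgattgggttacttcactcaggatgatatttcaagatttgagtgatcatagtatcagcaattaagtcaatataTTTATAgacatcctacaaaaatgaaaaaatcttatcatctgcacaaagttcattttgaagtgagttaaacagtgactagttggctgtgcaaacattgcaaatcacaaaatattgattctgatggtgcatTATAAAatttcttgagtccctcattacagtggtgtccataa
Cyp2c12: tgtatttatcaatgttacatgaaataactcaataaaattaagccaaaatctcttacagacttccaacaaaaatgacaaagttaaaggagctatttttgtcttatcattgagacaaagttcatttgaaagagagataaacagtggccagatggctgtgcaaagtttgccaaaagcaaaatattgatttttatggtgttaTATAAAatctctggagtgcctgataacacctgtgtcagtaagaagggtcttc
They lie at chr1:246174966-246175215 on the plus strand (Cyp2c11), chr1:246421533-246421782 on the plus strand (Cyp2c55), chr1:248787189-248787438 on the minus strand (Cyp2c13) and chr1:248677035-248677284 on the minus strand (Cyp2c12). The element stood 31 to 26 bases before the start of Cyp2c11 and 29 to 24 bases before that of Cyp2c55. In Cyp2c13 it stood 41 to 36 bases before the start, with a further match on the other strand, and in Cyp2c12 it stood 52 to 47 bases before. Cyp2c11 and Cyp2c55, which are neighbours on the chromosome, matched at 183 of 271 alignment columns (67.5%), and Cyp2c12 and Cyp2c13 at 170 of 280 (60.7%). Cyp2c11 and Cyp2c13 matched at 49.5%, close to the 48.9% of Cyp2c55 and Cyp8b1, which are of different families.

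Of the 72 members, 55 had a promoter in the RefSeq table, and TATAAA was present on either strand in 13 of them (23.6%), against 13.1% of all 27457 promoters. It was present in 5 of the 6 Cyp2c promoters, that of Cyp2c23 being the exception. In Cyp2c22 the only match stood 197 to 192 bases before the start, so not near it. In Cyp2d3, Cyp2d5 and Cyp4f40 the match was on the other strand only. Other motifs were searched on both strands of the same window, and their matches shared bases with each other or with TATAAA in 0 member promoters. TTCNNNGAA, the palindrome read by STAT5 downstream of growth hormone, was in 6 members (10.9%) against 7.52% of all promoters, and in 0 of the 6 Cyp2c promoters. TNGCGTG, the element of the aryl hydrocarbon receptor, was in 2 members, Cyp1b1 and Cyp26b1 (3.64%, against 4.26%). TTATGTAA, read by clock-controlled factors such as Dbp and Tef, was in Cyp2b2 and Cyp2g1 (3.64%, against 0.816%), and TTACGTAA in 0 members (against 0.113%). The direct repeats of the PPAR and vitamin D receptor types, the SREBP element and the HNF1 palindrome were in 0 members, against 0.0546%, 0.0146%, 0.0838% and 0.00364% of all promoters.

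On the first principal component of all genes DM rat 3 scored -14.9, within the -16.2 to -10.6 of the HQYDP rats, while DM rats 1 and 2 scored 17.9 and 39.5. On the second both groups were spread, between -15.8 and 23.5 in HQYDP and between -21.9 and 19 in DM. The study took a p under 0.05 without adjustment and a change of more than 1.5-fold as its thresholds. By these, 5 of the 72 members differed between HQYDP and DM (6.94%), against 3.28% of all genes tested. Cyp2c11, Cyp2c13 and Cyp8b1 were higher in HQYDP (4.17% of the members, against 1.46% of all genes), and Cyp24a1 and Cyp4b1 were lower (2.78%, against 1.82%). These shares of all genes, 1.46% higher and 1.82% lower, also apply to the counts of classes and lists below. The median difference over all members was 0.02 on the log2 scale, with 37 positive and 35 negative values, and that over all genes was 0. The test was limma fitted over all genes, two-sided, and 0 members had a Benjamini-Hochberg adjusted p under 0.05 (0.0165% of all genes did), with 10 members at an unadjusted p under 0.05 (13.9%, against 7.38%). The arrays of the groups did not overlap for 9 members (12.5%), against 12.1% of all genes. HQYDP was higher in 5 of these 9 (background 6.08%) and lower in 4 (background 6.01%). For a single gene with 3 rats against 3, an exact permutation test cannot give a p below 0.1, so none was used.

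**Figure D1:**
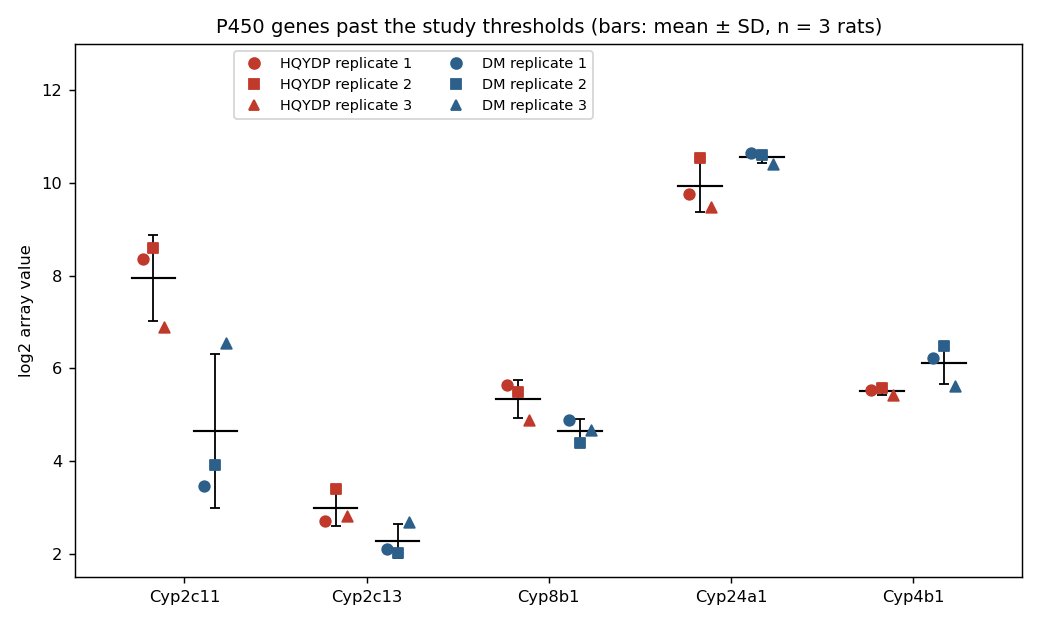
The 5 members past the study thresholds, with the log2 array value of each rat on the vertical axis, HQYDP left of DM for each gene, and bars for the mean ± SD of 3 rats. Cyp2c11 runs between 6.90 and 8.60 in HQYDP and between 3.47 and 6.54 in DM, while for Cyp24a1 and Cyp8b1 the groups overlap.

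The differences lay between -0.62 and 3.31, and 63 of the 72 were within 0.5 of 0. For 33 members the 95% interval of the difference lay wholly inside 1.5-fold in either direction. The SD between rats had a median of 0.22 in both groups. The mean of 33 members lay in the lowest 0.25 of all genes, with no detection call to go by, and 1 of these, Cyp2c13, was among the 5. The labels of the DM arrays alone mark a re-analysis, so a batch and the groups cannot be told apart. RNA of whole tissue also cannot tell fewer cells of a type from less RNA per cell.

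**Figure D2:**
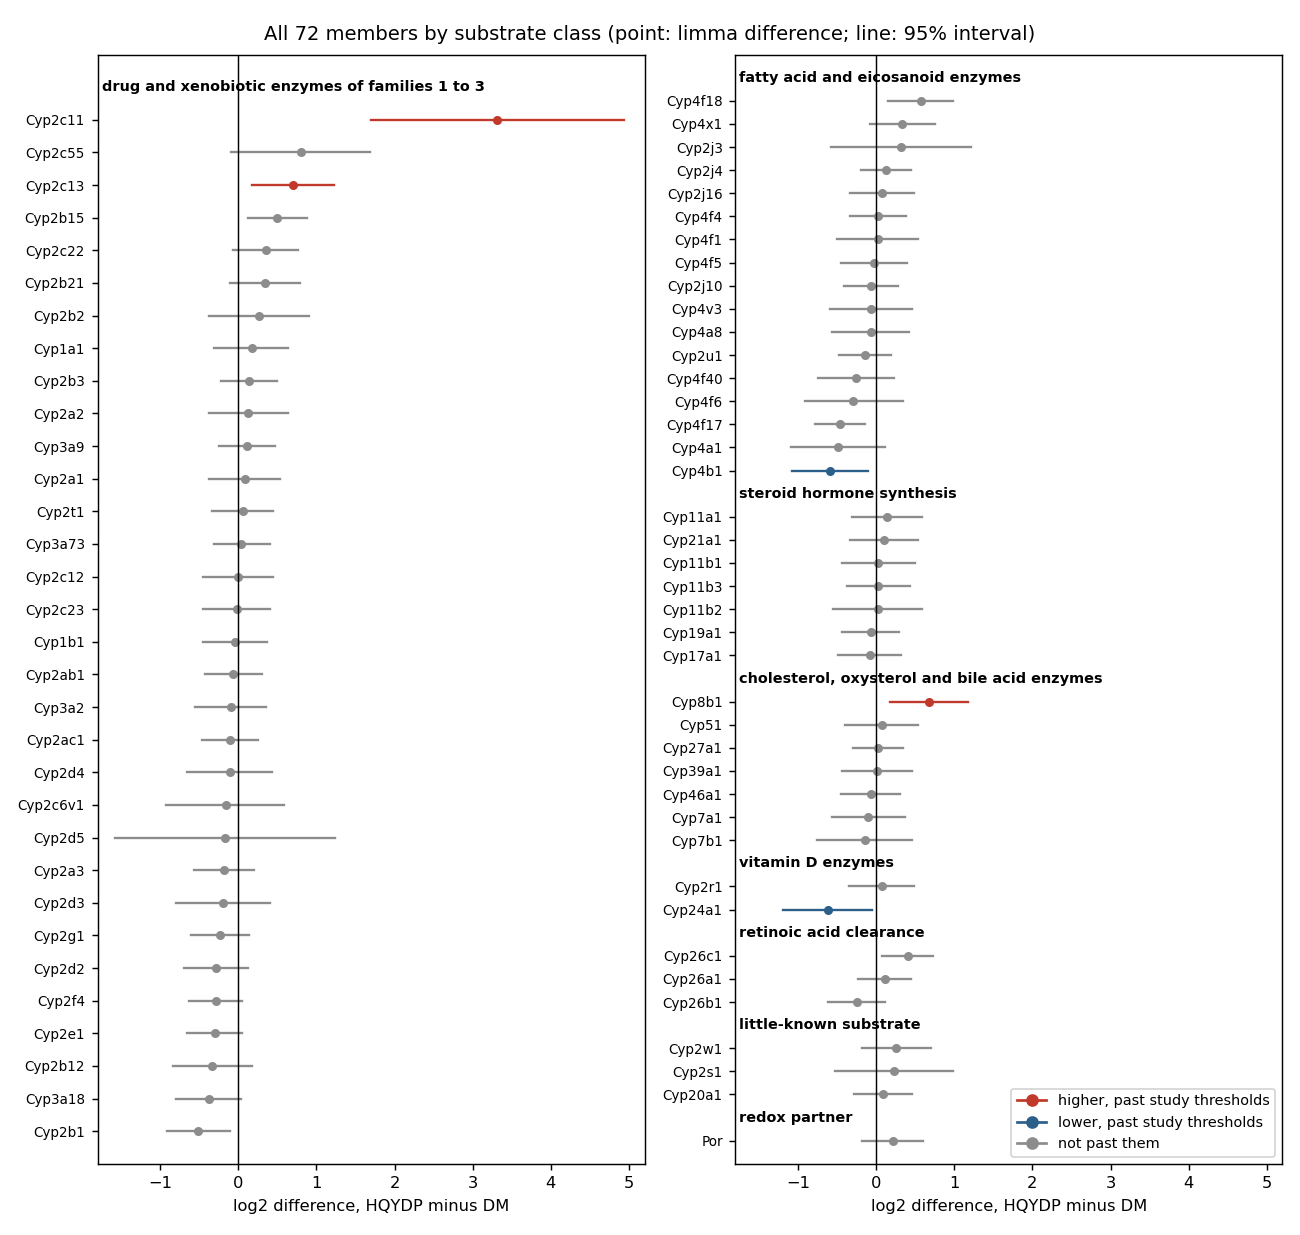
Log2 difference (HQYDP minus DM) of all 72 members on the horizontal axis, by substrate class, with the limma difference as a point and its 95% interval as a line. Most points sit within 0.5 of 0, and Cyp2c11 at 3.31 stands far to the right of the rest.

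Cyp2c11, the main male-specific P450 of rat liver, which hydroxylates testosterone and also makes epoxides of arachidonic acid, had values of 8.35, 8.60 and 6.90 in the HQYDP rats, against 3.47, 3.91 and 6.54 in the DM rats. All 3 HQYDP rats were above all 3 DM rats, but HQYDP rat 3 and DM rat 3 were only a small step apart. The difference was 3.31 ± 0.72 (SE), or 9.94-fold, with an unadjusted p of 0.0011 and an adjusted p of 0.253 in limma. Without DM rat 3 it was 4.26, with a limma adjusted p of 0.0058, a setting in which 151 of all genes had one under 0.05, against 3 with all arrays. Without any other array the adjusted p was 0.253 to 0.667. Over all 6 arrays left out in turn the difference ran between 2.73 and 4.26. With Welch's test in place of limma Cyp2c11 did not pass. In no other member did the DM rats spread as widely, with a range of 3.07 in DM against 1.70 in HQYDP.

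The second male-specific gene, Cyp2c13, had values of 2.71, 3.40 and 2.82 in HQYDP and 2.11, 2.02 and 2.69 in DM. The HQYDP rats were all higher, though by little for DM rat 3, and the difference was 0.70 ± 0.24 (SE; limma adjusted p = 0.496). It lost its call without HQYDP rat 2 (0.49), DM rat 1 (0.62) or DM rat 2 (0.58). Cyp2c12, the female-specific counterpart in rat liver, had 3.20, 2.50 and 2.94 in HQYDP and 2.80, 2.76 and 3.08 in DM, a difference of 0.00 ± 0.20 (SE) within the spread of both groups.

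Cyp2c23, the main arachidonic acid epoxygenase of rat kidney, had 12.41, 12.71 and 12.16 in HQYDP and 12.67, 12.46 and 12.22 in DM. The groups overlapped fully, and the difference of -0.02 had a 95% interval between -0.45 and 0.41, so that a shift beyond 1.5-fold lay outside it. Cyp2c55, whose mouse counterpart hydroxylates arachidonic acid, had 3.59, 5.02 and 3.12 in HQYDP and 2.96, 3.11 and 3.25 in DM. Here 1 rat, HQYDP rat 2, stood apart, and the difference of 0.80 ± 0.40 (SE) did not pass the test (limma adjusted p = 0.736). Cyp2c22 (0.35) and Cyp2c6v1 (-0.16), the remaining members of the subfamily, did not pass it either.

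**Figure D3:**
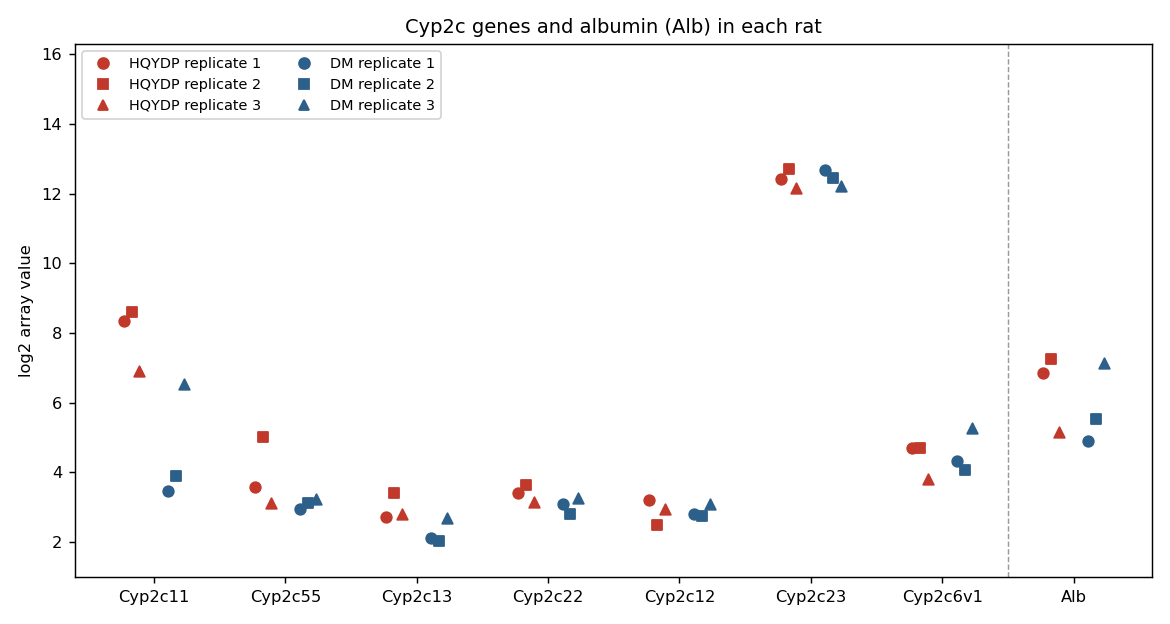
Log2 array values (vertical axis) of the 7 Cyp2c members and of albumin (Alb) in each rat, HQYDP left of DM, with the marker shape giving the rat number. HQYDP replicate 3 (red triangle) is the lowest of its group for Cyp2c11 and Alb, at 6.90 and 5.17, and DM replicate 3 (blue triangle) is the highest of its group for both, at 6.54 and 7.13.

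DM rat 3 was the highest DM rat for 6 of the 7 Cyp2c members and HQYDP rat 3 the lowest HQYDP rat for 5. Each count is of 1 array by itself, and the wider sets that follow include the subfamily. Among all 32 drug-clearing members DM rat 3 was the highest of its group for 16 and HQYDP rat 3 the lowest for 20, and among all 72 members these counts were 27 and 37. DM rat 1 was the highest of its group for more of the 72, at 30. Over all genes, DM rat 3 was the highest of its group for 6022 of 18166 and HQYDP rat 3 the lowest for 6802. Albumin, a defining gene of liver cells, was also lowest of HQYDP in rat 3 and highest of DM in rat 3. It had 6.86, 7.27 and 5.17 in HQYDP and 4.90, 5.53 and 7.13 in DM, and overlapped between the groups (0.58 ± 0.61, SE). Of 13 measured hepatocyte markers, 0 passed the study thresholds, and their mean was 4.84 to 5.21 in HQYDP against 4.98 to 5.38 in DM. Albumin had the highest difference of the 13, and 8 were negative. Some, such as Ttr and Ahsg, were likewise lowest of HQYDP and highest of DM in rat 3, though without the full order of rats of albumin. Others, such as Apob and Hpx, did not meet both. The part of liver-type RNA in the Cyp2c11 result was not tested.

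Of the 32 members of the drug-clearing class (families 1 to 3), Cyp2c11 and Cyp2c13 were higher at the study thresholds (6.25%, against 1.46% of all genes). In this class 0 were lower, and the median difference was -0.03. A pair of Cyp2b genes passed the p threshold and came near the fold threshold. Cyp2b15, first known from rat skin, had 5.69, 5.95 and 5.66 in HQYDP and 5.48, 5.09 and 5.23 in DM (0.50 ± 0.17, SE; limma adjusted p = 0.493). Cyp2b1, the classic gene induced by phenobarbital in rat liver, had 2.21, 2.23 and 2.03 in HQYDP and 2.64, 2.38 and 2.97 in DM (-0.51 ± 0.18, SE; limma adjusted p = 0.528). The groups did not overlap for either gene, and the 2 differences have opposite signs. Cyp2b15 passed the study thresholds without DM rat 1 (0.61), and Cyp2b1 without DM rat 2 (-0.65).

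Cyp2e1, which oxidises ethanol and ketone bodies and is raised in the liver of diabetic rats, had 10.28, 10.12 and 10.08 in HQYDP and 10.58, 10.53 and 10.28 in DM. The groups touched at 10.28, and the difference of -0.30 ± 0.16 (SE) did not pass the test (limma adjusted p = 0.752). Cyp1a1 (0.17) and Cyp1b1 (-0.04), targets of the aryl hydrocarbon receptor, and Cyp3a9 (0.11) overlapped between the groups. All 4 Cyp2d members had negative differences, between -0.29 and -0.11, and 0 passed. Among them Cyp2d5 varied most, with 8.56, 6.03 and 8.36 in HQYDP and 8.04, 6.88 and 8.54 in DM. Rat 2 was the lowest of each group for Cyp2d5, by a margin wider than the difference of -0.17 ± 0.63 (SE). A row shared by Cyp2d1 and Cyp2d5, which the array cannot assign to 1 gene, gave 0.41 ± 0.38 (SE).

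In the fatty acid and eicosanoid class, 1 of 17 members was lower in HQYDP (5.88%, against 1.82% of all genes). In this class 0 were higher, and the median difference was -0.06. Cyp4b1, which hydroxylates fatty acids and activates some lung toxicants, had 5.53, 5.58 and 5.42 in HQYDP and 6.23, 6.48 and 5.61 in DM. The HQYDP rats lay close together below all DM rats, and DM rat 3 was near them. The difference was -0.59 ± 0.22 (SE; limma adjusted p = 0.558), just past the fold threshold at 0.663-fold. It lost its call without HQYDP rat 3 (-0.55), DM rat 1 (-0.53) or DM rat 2 (-0.41), and after quantile normalization (-0.56).

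The Cyp4a enzymes make the vasoconstrictor 20-HETE and related hydroxy acids in rat kidney and are induced by PPAR-α. Cyp4a1 had 9.59, 10.07 and 9.23 in HQYDP and 10.60, 10.06 and 9.68 in DM. The groups overlapped, and the difference of -0.49 ± 0.27 (SE) did not pass the test (limma adjusted p = 0.795). It passed the study thresholds without HQYDP rat 2 (-0.71) or DM rat 3 (-0.70). Cyp4a8 had a difference of -0.07, and the row shared by Cyp4a3 and Cyp4a2 had 12.64, 12.18 and 11.84 in HQYDP and 12.22, 12.77 and 11.94 in DM (-0.09). Both overlapped between the groups.

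The Cyp4f enzymes inactivate leukotrienes, and 2 of the 7 measured lay inside the p threshold (28.6%, against 7.38% of all genes). Both fell short of the fold threshold, and both had a mean in the lowest 0.25 of all genes. Cyp4f17 had 3.66, 3.66 and 3.72 in HQYDP and 4.23, 4.15 and 4.05 in DM (-0.46 ± 0.14, SE; limma adjusted p = 0.453). The HQYDP rats lay closer together than for any other member, with an SD of 0.04, and below all DM rats. Cyp4f18, whose mouse counterpart acts on leukotriene B4 in neutrophils, had 4.42, 4.58 and 4.13 in HQYDP and 4.04, 3.55 and 3.83 in DM (0.57 ± 0.19, SE; limma adjusted p = 0.486). All HQYDP rats were higher, but Cyp4f18 missed the fold threshold at 1.48-fold. It passed without HQYDP rat 3 or DM rat 1 (0.69 for both). Cyp4f1, a leukotriene hydroxylase of rat liver and kidney, had a difference of 0.02, and Cyp4f6 of -0.29. The Cyp2j genes, epoxygenases outside the Cyp2c group, ran between -0.06 and 0.32, with Cyp2j4 at 7.11, 7.23 and 7.18 in HQYDP and 7.14, 6.99 and 7.02 in DM (0.13). Cyp2j3 (0.32 ± 0.40, SE) had a wide DM spread, with 3.54 in DM rat 1 and 5.34 in DM rat 2.

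Of 20 measured genes around these enzymes that release arachidonic acid or turn it into eicosanoids, 0 were higher and 2 were lower, with a median of -0.07. In this list Tbxas1 and Ptgis are themselves P450 enzymes, but their symbols kept them out of the members, and Ptgis did not pass (-0.15). The 2 were Tbxas1, thromboxane synthase (5.18, 4.94 and 4.95 in HQYDP and 5.79, 5.89 and 5.21 in DM; -0.61 ± 0.20, SE), and Alox5ap, which hands arachidonic acid to 5-lipoxygenase (-0.59 ± 0.22, SE). Tbxas1 lost its call without HQYDP rat 2 or 3 (-0.57 for both), DM rat 1 (-0.53) or DM rat 2 (-0.48), and Alox5ap without HQYDP rat 2 (-0.45), DM rat 1 (-0.50) or DM rat 2 (-0.46). Both are made by macrophages, and 7 of 8 macrophage markers were also lower (87.5%, against 1.82% of all genes). The mean of all 8 was 5.49 to 5.84 in HQYDP and 5.74 to 6.93 in DM. The part of these cells in the Tbxas1 and Alox5ap values was not tested. Ephx2, the soluble hydrolase that removes epoxides of arachidonic acid, had a difference of 0.34 and did not pass. Of 23 measured PPAR-α targets in fatty acid metabolism, 4 were lower (17.4%, against 1.82% of all genes) and 0 were higher, with a median of -0.18. Angptl4, an inhibitor of lipoprotein lipase, had 5.88, 5.55 and 5.94 in HQYDP and 8.37, 7.93 and 7.11 in DM (-2.02 ± 0.29, SE; limma adjusted p = 0.0701). Pdk4, which shuts pyruvate out of mitochondria, differed by -1.12, Acaa1b of peroxisomal β-oxidation by -0.95, with overlap, and the lipid droplet protein Plin2 by -0.87.

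Cyp24a1, which inactivates vitamin D and is induced by its receptor, had 9.76, 10.55 and 9.48 in HQYDP and 10.64, 10.60 and 10.42 in DM. HQYDP rat 2 lay among the DM rats and the other HQYDP rats below them. The difference was -0.62 ± 0.25 (SE; limma adjusted p = 0.615), or 0.651-fold, and it lost its call without HQYDP rat 1 (-0.54), HQYDP rat 3 (-0.39), DM rat 1 (-0.58) or DM rat 2 (-0.60). Cyp2r1, which starts vitamin D activation in the liver, differed by 0.07, and Cyp27a1, which can do the same, by 0.02. Cyp27b1 was not analysed here.

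Among 18 genes of vitamin D and calcium handling, 3 were higher in HQYDP (16.7%, against 1.46% of all genes). In this list 0 were lower, and the median was 0.11. Gc, the vitamin D binding protein, had 9.13, 9.03 and 8.70 in HQYDP and 6.99, 6.59 and 7.42 in DM, with all HQYDP rats well above all DM rats (1.95 ± 0.22, SE). It was the only gene of this list with an adjusted p under 0.05 in limma (0.0419), and without any 1 array other than DM rat 3 that value was 0.106 to 0.199. Casr, the calcium-sensing receptor (0.89), and Slc8a1, the sodium-calcium exchanger (0.88), were higher without overlap. Markers of the thick ascending limb, where Casr is known to act, were also higher for 3 of 7 (42.9%, against 1.46% of all genes). Their mean was 9.65 to 9.86 in HQYDP and 9.24 to 9.34 in DM. The part of this segment in the Casr and Slc8a1 values was not tested. The vitamin D receptor Vdr (0.10) and the distal calcium channel Trpv5 (0.20) did not pass the test. At an unadjusted limma p under 0.05 there were 5 of the 18 (27.8%, against 7.38% of all genes). Besides the 3 higher genes, these were Fgf23 and Trpv6, which had negative differences and just missed the fold threshold. Fgf23 differed by -0.58 ± 0.23 (SE; 0.669-fold) without overlap, and Trpv6 by -0.56 ± 0.22 (SE; 0.679-fold) with overlap. Fgf23 was dim, its mean at percentile 22.2 of all genes. Calb1, the calcium-binding protein of the distal tubule, had 10.03, 10.47 and 10.37 in HQYDP and 9.37, 9.36 and 10.49 in DM, where DM rat 3 lay with the HQYDP rats (0.55).

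Of the 7 members that act on cholesterol, oxysterols and bile acids, 1 was higher (14.3%, against 1.46% of all genes). Cyp8b1, the liver enzyme that commits bile acid synthesis to cholic acid, had 5.64, 5.49 and 4.88 in HQYDP and 4.89, 4.40 and 4.68 in DM. HQYDP rat 3 and DM rat 1 were alike and the other rats were apart, and the difference was 0.68 ± 0.22 (SE; limma adjusted p = 0.484). It lost its call without HQYDP rat 1 (0.53) or DM rat 2 (0.55). Cyp7a1, the rate-limiting enzyme of bile acid synthesis, differed by -0.10, Cyp7b1, an oxysterol hydroxylase, by -0.14, and Cyp51 of cholesterol synthesis by 0.07. Of 15 measured genes of cholesterol synthesis around Cyp51, 0 passed in either direction, with a median of 0.09.

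The 7 steroid hormone enzymes did not pass the test in either direction, and their differences lay between -0.08 and 0.14. They included Cyp11a1, which opens steroid synthesis (0.14), the 3 Cyp11b genes of the adrenal cortex (0.02 to 0.03), Cyp17a1 (-0.08), Cyp21a1 (0.10) and aromatase, Cyp19a1 (-0.07). Of 17 measured genes for other steroid enzymes and for receptors, 0 passed. Adrenal markers bear on this class because the gland lies on the kidney. Of 8 measured adrenal cortex markers, 1 was higher (12.5%, against 1.46% of all genes). That was Mrap, a partner of melanocortin receptors that fat cells also make (1.64), while Star (-0.23), Mc2r (-0.08) and Nr5a1 (-0.04) did not pass.

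The Cyp26 enzymes clear retinoic acid. Cyp26c1 had 4.59, 4.51 and 4.41 in HQYDP and 4.01, 4.09 and 4.20 in DM. The groups did not overlap, but the fold of 1.33 missed the fold threshold (0.41 ± 0.15, SE; limma adjusted p = 0.538). Cyp26a1 (0.11) and Cyp26b1 (-0.25) overlapped. Of 16 measured genes of retinoid handling, 0 were higher and 2 were lower (12.5%, against 1.82% of all genes), with a median of -0.09. Lrat, which stores retinol as ester, had 3.87, 4.46 and 3.73 in HQYDP and 5.06, 4.91 and 4.8 in DM, without overlap (-0.90 ± 0.21, SE). Stra6, the retinol uptake receptor, overlapped (-0.67 ± 0.26, SE) and lost its call without HQYDP rat 3 (-0.47), DM rat 1 (-0.60) or DM rat 2 (-0.48). Of the 3 members of little-known substrate, Cyp2w1 (0.26), Cyp2s1 (0.23) and Cyp20a1 (0.09), 0 passed.

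Por had 8.48, 8.82 and 8.93 in HQYDP and 8.63, 8.35 and 8.62 in DM. The groups overlapped, and the difference was 0.21 ± 0.17 (SE; limma adjusted p = 0.908). Of 10 measured redox partners, which include Por, the cytochrome b5 genes and the mitochondrial electron donors, 0 passed, with a median of 0.11. Of 10 measured genes of heme synthesis and breakdown, 1 was lower and 0 were higher. That was Hmox1, the stress-induced enzyme that degrades heme, with 5.07, 4.54 and 4.56 in HQYDP and 5.84, 6.17 and 5.87 in DM (-1.24 ± 0.19, SE; limma adjusted p = 0.096). All HQYDP rats were lower than all DM rats. Hmox1 is abundant in macrophages, whose markers were lower as well (7 of 8), and their part in its value was not tested.

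Of 23 measured receptors and factors that control P450 genes, 2 were higher and 0 were lower at the study thresholds (8.7%, against 3.28% of all genes), with a median of 0.01. At an unadjusted p under 0.05 there were 4 (17.4%, against 7.38%). Tef and Dbp, clock-controlled factors of the same family, were the 2 past both thresholds. Tef had 7.06, 7.25 and 7.39 in HQYDP and 6.42, 6.25 and 6.75 in DM, without overlap (0.76 ± 0.18, SE; limma adjusted p = 0.281), and Dbp overlapped (0.91 ± 0.28, SE) and lost its call with array weights, the methods' t-test and Welch's test. The other 2 had lower values in every HQYDP rat than in any DM rat but missed the fold threshold. They were Cebpb, a factor of liver and inflammatory genes (-0.48 ± 0.18, SE), and Nr1i2, the pregnane X receptor, which induces drug-clearing P450 genes in liver (-0.36 ± 0.16, SE). No source used here gives the time of day at which each kidney was taken. Of 11 measured genes of growth hormone, prolactin and androgen response, 1 was higher (9.09%, against 1.46% of all genes). That was the prolactin receptor Prlr, with 8.87, 8.19 and 7.70 in HQYDP and 7.30, 6.94 and 7.19 in DM. All HQYDP rats were higher (1.11 ± 0.27, SE; limma adjusted p = 0.3). The growth hormone receptor Ghr lay inside the p threshold but missed the fold threshold at 1.33-fold (0.41 ± 0.18, SE), and its groups overlapped through DM rat 3. Stat5b, the factor that carries its signal to Cyp2c11 in rat liver, did not pass (-0.05).

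**Figure D4:**
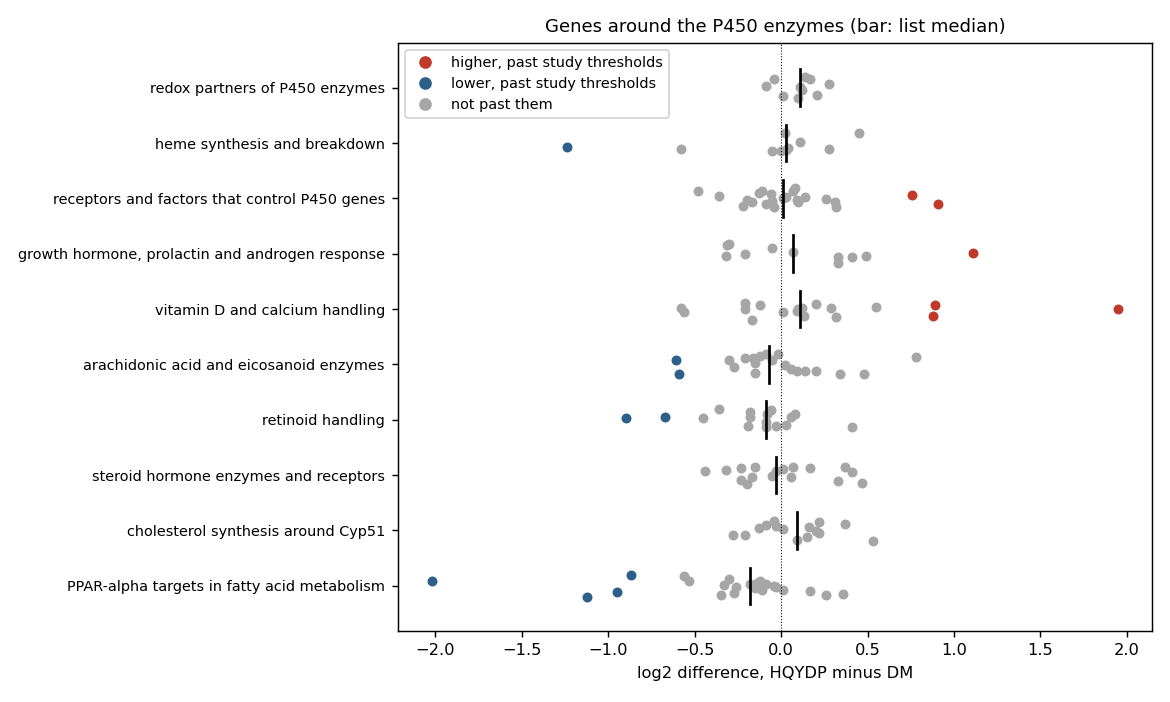
Log2 difference (HQYDP minus DM, horizontal axis) of each gene in 10 lists around the P450 enzymes, with a point per gene and a bar at each list's median. Gc at 1.95 and Prlr at 1.11 lie to the right, Angptl4 at -2.02, Hmox1 at -1.24 and Pdk4 at -1.12 to the left, and the list medians all lie between -0.18 and 0.11.

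In RefSeq order, with at most 5 protein-coding genes between neighbours, 47 of the 71 members placed fell into 11 clusters of neighbours. The differences had 1 sign throughout in 5 clusters and both signs or a 0 in 6. The 5 were Cyp2c11 (3.31) with Cyp2c55 (0.80), Cyp26c1 (0.41) with Cyp26a1 (0.11), Cyp1a1 (0.17) with Cyp11a1 (0.14), the 3 Cyp11b genes (0.02 to 0.03) and the 4 Cyp2d genes (-0.29 to -0.11). Of these 13 genes, Cyp2c11 alone passed the study thresholds. Among the 6, a second Cyp2c cluster held Cyp2c6v1 (-0.16), Cyp2c12 (0.00), Cyp2c13 (0.70) and Cyp2c22 (0.35). The largest cluster, 13 genes of the Cyp2a, Cyp2b, Cyp2f, Cyp2g, Cyp2s and Cyp2t subfamilies, had 0 genes past the study thresholds and ran between -0.51 and 0.50. In the cluster with Cyp4b1 (-0.59), Cyp4a1 lay at -0.49, Cyp4a8 at -0.07 and Cyp4x1 at 0.33.

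Markers of tubule cells, which hold most kidney P450 enzymes, moved in part with the groups. Proximal tubule markers had a mean of 10.58 to 11.09 in HQYDP and 10.87 to 11.11 in DM, and 0 of 9 measured passed. Late proximal tubule markers were higher for 4 of 10 (40.0%, against 1.46% of all genes), with a mean of 9.46 to 9.68 in HQYDP and 8.50 to 8.95 in DM. The widest gap was that of the transporter Slc7a12, with 10.43, 9.88 and 10.45 in HQYDP and 6.43, 7.24 and 7.61 in DM (3.16; limma adjusted p = 0.0182). Its adjusted p was 0.142 without HQYDP rat 1, 0.106 without HQYDP rat 3 and 0.196 without DM rat 2. Injured tubule markers were lower for 4 of 10 (40.0%, against 1.82% of all genes), with a mean of 5.84 to 6.26 in HQYDP and 6.59 to 7.22 in DM. Among them Havcr1, the kidney injury molecule, had 6.88, 5.91 and 6.72 in HQYDP and 10.37, 9.99 and 6.76 in DM. DM rat 3 thus lay with the HQYDP rats for Havcr1, and also for Lcn2 (6.15, against 5.51 to 6.61 in HQYDP). It lay above all HQYDP rats for Spp1 (10.99, against at most 10.38) and Cdkn1a (6.92, against at most 5.97). Outside the proximal tubule, thick ascending limb markers were higher for 3 of 7 (Umod, Cldn16 and Egf) and intercalated cell markers for 3 of 8. These were 42.9% and 37.5%, against 1.46% of all genes. The intercalated cell mean was 7.97 to 8.14 in HQYDP and 7.40 to 7.62 in DM. Of 7 listed podocyte markers 4 were measured, and 0 of these were past the thresholds. All 4 were higher in every HQYDP rat than in any DM rat, against 6.08% of all genes, with a median difference of 0.43. Fibroblast and matrix markers were lower for 3 of 7 (42.9%, against 1.82% of all genes), with a mean of 6.53 to 7.09 in HQYDP and 7.18 to 8.39 in DM. The part of these cell types in the P450 values was not tested.

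**Figure D5:**
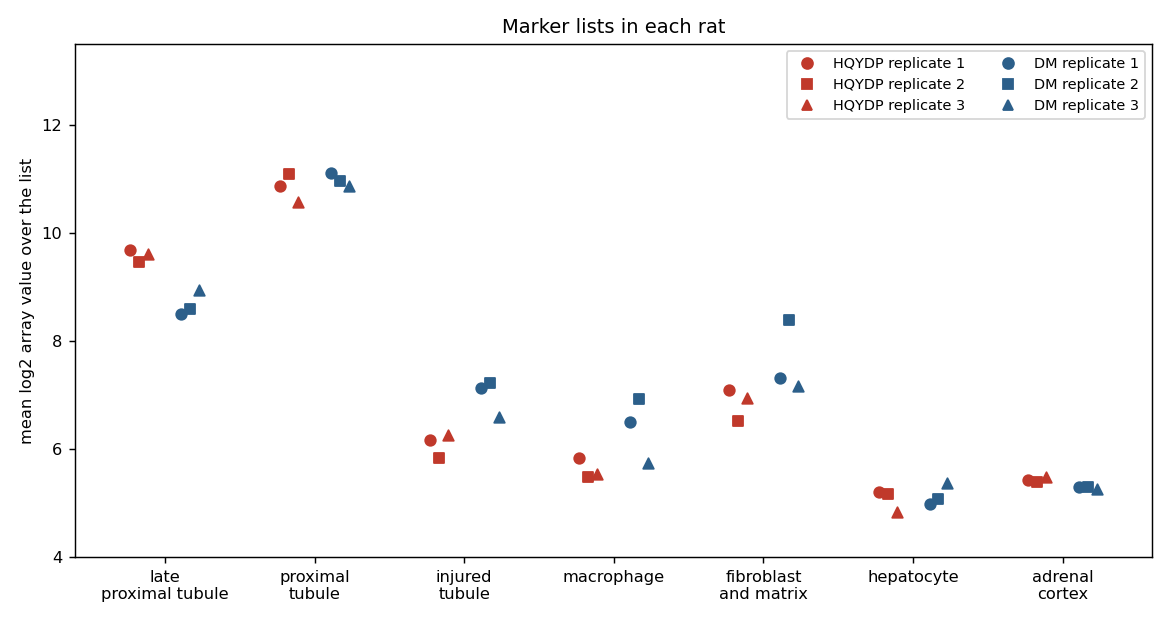
Mean log2 array value over each marker list (vertical axis) in each rat, HQYDP left of DM, with the marker shape giving the rat number. Late proximal tubule means are higher in every HQYDP rat (9.46 to 9.68 against 8.50 to 8.95), injured tubule means are lower in every HQYDP rat (5.84 to 6.26 against 6.59 to 7.22), and proximal tubule and hepatocyte means overlap.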

How the data were processed

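Kidney RNA of 3 HQYDP and 3 DM rats was read on 1 array each. The authors deposited log2 values per transcript. Software, normalization and build: not given in the sources used here. A range of 0.35 to 13.59 was the ground for reading the log as base 2. The labels number the arrays of each group as replicates 1 to 3 and do not state that each is a separate rat. Each was taken as 1 rat, and p-values measure the spread between rats only if that holds. Arrays carry no counts, and their number limits the precision.

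Of 36685 rows, 18511 had 1 symbol in the platform annotation, 575 had several and 17599 had none. An Entrez ID in RefSeq was found for 18394 of the rows with 1 symbol, and 0 symbols changed. Of the resulting 18166 genes, 291 had several rows and were represented by their brightest row on average. HQYDP was set against DM over all 6 arrays and without covariates by lmFit and eBayes of limma 3.58.1 (R 4.3.3), and p-values were adjusted over all genes by the Benjamini-Hochberg method. The fit was tested on simulated data. Calls used the study thresholds. Promoters were aligned with Biopython 1.88, and tables were handled with pandas 2.3.3.

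Members, lists and tests were chosen with earlier results of these data known. Named genes were the members past the thresholds, members of known kidney role, up to 5 rises and 5 falls without overlap, and up to 4 called genes of each list. Some further members were named after their values were seen, to account for each class. Alternatives tried were quantile normalization, centring on the median, dim genes left out, Welch's test and the methods' t-test, array weights, an intensity trend, a replicate block, other rows per gene, other fold thresholds and each array left out in turn. Rows paired with several symbols were kept apart from the members.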

Additional observations from a re-analysis of the deposited data

Results flagged for a closer look

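A row outside the comparisons, shared by Cyp2s1 and Cyp2s1-ps1 and so not assigned to 1 gene, had 4.87, 4.72 and 4.76 in HQYDP and 4.60, 4.52 and 4.55 in DM. All HQYDP rats were above all DM rats, by 0.23 ± 0.15 (SE from limma over all rows), and did not pass the test. The row of Cyp2s1 alone had the same difference of 0.23 with an SE of 0.34, and its groups overlapped.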

How the results depend on the processing

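Higher members (3 in the main comparison) were 1 with the methods' t-test, 0 with Welch's test, 1 at a fold over 2 and 6 with no fold threshold, and 1 to 5 with an array left out in turn. Lower members (2) were 0, 0, 0 and 4 in the same order and 1 after quantile normalization, and 0 to 4 with an array left out. Cyp2c11 was the 1 member that the t-test kept. Over all 18166 genes the higher counts (266) were 159, 115, 43 and 658 in the same order. The lower counts (330) were 119, 85, 80 and 682, with 304 after quantile normalization. With an array left out, the counts over all genes were 272 to 397 higher and 219 to 730 lower. Members with an adjusted p under 0.05 (0) were 0 to 1 with an array left out, the 1 being Cyp2c11 without DM rat 3. In that setting 151 of all genes had such a value, against 3 in the main comparison. The median (0.02) stayed between -0.03 and 0.06. Acaa1b lost its call with both the t-test and Welch's test, and Prlr and Slc8a1 with Welch's test. The adjusted p of Gc was 0.066 after quantile normalization. Deviations of same-numbered rats correlated at 0.14, -0.08 and 0.21. Those of differently numbered rats correlated between -0.35 and 0.22, so these values cannot decide whether the replicate numbers pair the rats. The replicate block gave 4 higher and 2 lower members, with 287 and 374 over all genes, and a limma adjusted p of 0.0528 for Gc. Counting Cyp2b14l1 and Cyp3a23-3a1 as members, an alternative added after the data were seen, gave 3 higher and 2 lower.

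Differences near 0 turned their sign. With an array left out they ran between 0.00 and 0.38 for Cyp1a1, -0.17 and 0.14 for Cyp1b1, -0.02 and 0.07 for Cyp27a1, -0.16 and 0.11 for Cyp2c23, -0.19 and 0.71 for Cyp2j3, -0.10 and 0.22 for Cyp2r1, -0.25 and 0.13 for Cyp4a8, -0.20 and 0.19 for Cyp4f1, -0.15 and 0.23 for Cyp51 and -0.37 and 0.18 for Cyp7b1. With array weights Cyp4f1 was at 0.00. The cause was not tested. Over all genes, 266 were higher and 330 lower, and these were 379 and 730 without DM rat 3 and 159 and 119 with the t-test. With 3 rats a group, the 95% interval of the difference lay inside 1.5-fold for 33 of the 72 members.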
